A study of Rattus norvegicus with 8 samples.

Results

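The insulin-like growth factor (IGF) system was measured here in the eye-moving (extraocular) muscles of adult rats, in their orbital and global layers. All probe sets annotated to exactly 1 of 9 genes were taken: the ligands Igf1 and Igf2, the receptors Igf1r and Igf2r, and the binding proteins Igfbp3, Igfbp4, Igfbp5, Igfbp6 and Igfbp7. All 9 genes were on the array, among 10411 genes with a probe set of a single symbol, and held 18 of its 15923 probe sets. The 4 orbital captures came from the layer that faces the bone of the orbit, and the 4 global captures from the layer that faces the globe. Each capture was tissue of adult rat muscle cut out with a laser, its mRNA was amplified by a T7-based method, and it was hybridised to 1 Affymetrix RAE230A array. Captures 1 and 2 of each layer carry the prefix R2 in their titles and captures 3 and 4 the prefix R3. No treatment, genotype, strain, sex or age beyond adult is given for either layer. No label names the animal behind a capture, so p-values cover only the variation among the 8 captures. They can run too low where an animal gave more than 1 capture of the same layer. Where an animal gave captures of both layers, that pairing was ignored, which can make them too high.

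IGF-1 and IGF-2 are small secreted proteins related to insulin. Both act through the IGF-1 receptor, a tyrosine kinase that turns on the PI3K-Akt and Ras-MAP kinase pathways, and in skeletal muscle IGF-1 made by the tissue itself is known to promote fibre growth and repair. The IGF-2 receptor has no kinase; it removes IGF-2 from the cell surface and carries enzymes tagged with mannose 6-phosphate to the lysosome. Secreted binding proteins hold IGFs outside the cell and, depending on the protein and the tissue, limit or prolong their action.

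Skeletal muscle markers were present in every capture of both layers: all 12 fixed marker genes were tested, and none (0) was at background on all 8 arrays. The median intensity of the arrays was between 59.0 and 66.4. As a mark of background, the highest of 27 control probe sets for Bacillus genes lay between 17.7 and 41.5 per array. That mark assumes that no Bacillus RNA was added to the samples, which the labels do not state, and no detection calls were used. The Gapdh signal of the 3′ probe set divided by that of the 5′ one, a measure of shortened RNA, was 12.9 in orbital capture 3 and 8.64 in orbital capture 4, against 5.35 to 6.47 in the other 6 captures. The same ratio for actin did not set them apart, with 8.32 and 8.37 in orbital captures 3 and 4 and 7.69 to 10.7 in the other 6. Among the global captures, 1 and 4 stood apart in some photoreceptor genes. Sag, the retinal arrestin, read 345.1 and 389.3 in them, against 2.2 and 13.2 in global captures 2 and 3, and 137.9 to 802.3 in the orbital captures. Pdc and Gnat1 were also higher in global captures 1 and 4 than in 2 and 3. Guca1a did not set them apart, with 341.4, 356.6, 208.4 and 450.3 in global captures 1 to 4. Rcvrn was above the background mark only in global capture 1. In captured tissue, fewer cells of a type and less RNA per cell cannot be told apart.

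Igf1 and the genes of 2 IGF binding proteins were higher in the orbital layer. Igf1 itself rose by about 1.8-fold at 1 probe set and 1.6-fold at the other. Igfbp6, which prefers IGF-2 over IGF-1, rose by about 1.8-fold, and Igfbp7, a low-affinity relative found in vessel walls and matrix, by about 1.5-fold. Of the 18 probe sets, 13 passed the filter on dim signal (a mean intensity of about 39.4) and at least 1 probe set of each gene was among them. In limma with Benjamini-Hochberg adjustment over all 9520 probe sets tested, 4 of the 13 were higher in the orbital layer at an adjusted p under 0.05, 0 were lower and 9 did not pass. Over the whole array 7.41% of tested probe sets passed, 3.91% higher and 3.5% lower. With no adjustment, 5 of the 13 had p under 0.05, against 21.6% of all tested probe sets, the fifth being lower in the orbital layer. None of the 4 that passed (0) reached a 2-fold difference, while 240 probe sets of the whole array passed with at least that.

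The promoters of the 3 genes that rose are shown because their transcripts moved in the same direction. Each line holds the 250 bases before the transcription start in RefSeq's annotation of the GRCr8 build, 5′ to 3′ along the gene. Capitals mark every match, on either strand, to an E box (CANNTG, where N is any base) or a GC box (GGGCGG). The TATA box was searched as TATAAA. The CCAAT motif was searched by its name's letters. The listed starts of Igf1 and Igfbp7 lie inside the annotated genes, so they are not the furthest upstream starts.
Igf1 (chr7:24172282-24172531, plus strand): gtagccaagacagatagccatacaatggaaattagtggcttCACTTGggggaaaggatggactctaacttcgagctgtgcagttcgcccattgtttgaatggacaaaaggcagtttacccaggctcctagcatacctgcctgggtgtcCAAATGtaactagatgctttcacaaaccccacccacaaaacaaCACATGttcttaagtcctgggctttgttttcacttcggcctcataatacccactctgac
Igfbp6 (chr7:135154669-135154918, plus strand): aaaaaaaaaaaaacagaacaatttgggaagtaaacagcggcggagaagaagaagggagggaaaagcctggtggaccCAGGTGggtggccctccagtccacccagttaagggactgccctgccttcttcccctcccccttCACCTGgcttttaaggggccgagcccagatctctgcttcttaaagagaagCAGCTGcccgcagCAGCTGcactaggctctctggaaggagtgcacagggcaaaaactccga
Igfbp7 (chr14:31091486-31091735, plus strand): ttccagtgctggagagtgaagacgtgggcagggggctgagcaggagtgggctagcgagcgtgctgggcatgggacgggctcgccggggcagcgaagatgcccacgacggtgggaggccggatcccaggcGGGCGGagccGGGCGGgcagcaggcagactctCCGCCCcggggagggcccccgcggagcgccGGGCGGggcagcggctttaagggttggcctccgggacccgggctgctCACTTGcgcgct
The Igf1 window held 3 E boxes and 0 GC boxes, and the Igfbp6 window 4 E boxes and 0 GC boxes. In Igfbp6, 2 of the E boxes read CAGCTG, a form counted within the E boxes. The Igfbp7 window held 4 GC boxes and 1 E box. None of the 3 windows (0) held TATAAA or CCAAT. Of 33469 rat promoter windows of the same length, 4007 held CAGCTG. An E box was in 65.5% of them, a GC box in 30.5%, TATAAA in 12.9% and CCAAT in 34.0%. The letters G and C made up 46.8% of the Igf1 window, 54.8% of the Igfbp6 window and 74.4% of the Igfbp7 window, against a median of 51.2% over all windows. No letter pattern searched was present in all 3 windows other than the E box, which most rat promoters also hold. These matches are letters only, and no measurement of binding was made.

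Of the ligands, Igf1 was higher in the orbital layer at both of its probe sets. At probe set 1388469_at the intensities were 384.7, 376.4, 281.2 and 335.9 in orbital captures 1 to 4, against 149.2, 245.1, 172.2 and 194.2 in global captures 1 to 4. All 4 orbital captures lay above all 4 global captures. Orbital captures averaged 345 ± 47.3 and global captures 190 ± 41.0 (SD, n = 4 each), a log2 difference of 0.87 ± 0.17 (SE; limma adjusted p = 0.00653). The call held under 21 of 24 alternative settings of the analysis, including each single capture left out (adjusted p 0.00289 to 0.0249). It was lost with global captures 1 and 4 both left out (limma adjusted p = 0.0765) and within either title prefix alone, 2 captures against 2 (0.136 in R2 and 0.133 in R3).

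At probe set 1370333_a_at of Igf1, whose suffix marks probes shared by alternative transcripts, the layers were less well separated. Its intensities were 820.5, 1145.6, 763.9 and 640.4 in orbital captures 1 to 4, against 428.6, 658.2, 446.7 and 531.0 in global captures 1 to 4. The layers overlapped by 1 pair, since orbital capture 4 was just under global capture 2. The log2 difference was 0.69 ± 0.18 (SE, n = 4 captures per layer; limma adjusted p = 0.0367). Removing any 1 of 6 captures ended this call (all but global capture 2 and orbital capture 4; limma adjusted p 0.0640 to 0.105). It held under 13 of 24 alternatives, and was also lost without the filter on dim signal (0.0580), without the intensity trend (0.0816), without global captures 1 and 4 (0.209) and within either prefix alone (0.189 and 0.266). Across the 8 captures the log2 values of both Igf1 probe sets had a Pearson r of 0.90, given as a description since they share arrays and layers.

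Igf2, the growth factor of fetal tissues, showed no layer difference that could be told from the spread. Its bright probe set 1367571_a_at read 172.6, 127.5, 150.0 and 218.1 in orbital captures 1 to 4, against 143.7, 131.2, 166.2 and 225.2 in global captures 1 to 4. Capture 4 was the highest of each layer, the ranges overlapped, and the log2 difference was 0.01 ± 0.20 (SE; limma adjusted p = 0.989). The other 3 Igf2 probe sets, all annotated to 1 shared sequence record, read 1.2 to 10.2 in the orbital and 1.5 to 7.0 in the global captures, under the background mark of every array. They were not tested.

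The receptors did not pass. Igf1r read 103.9, 151.0, 131.7 and 118.3 in orbital captures 1 to 4, against 66.7, 113.1, 108.0 and 138.4 in global captures 1 to 4. The layers overlapped, and the log2 difference was 0.28 ± 0.22 (SE; limma adjusted p = 0.511). It was 0.52 within prefix R2 and 0.03 within prefix R3. Igf2r had probe sets of 259.9 to 448.7 (1367636_at) and 425.1 to 536.1 (1386872_at) in the orbital captures, against 247.0 to 459.4 and 427.3 to 621.9 in the global captures. Their log2 differences were -0.14 ± 0.21 and -0.13 ± 0.14 (SE; limma adjusted p = 0.750 and 0.668). Although both are annotated to the same sequence record, their values over the 8 captures had r of -0.17, so they did not rank the captures alike.

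Among the binding proteins Igfbp6 was higher in the orbital layer. At probe set 1372168_s_at, whose suffix marks probes that can match several transcripts, the intensities were 478.9, 519.7, 629.0 and 381.1 in orbital captures 1 to 4, against 230.6, 286.0, 218.7 and 375.1 in global captures 1 to 4. No global capture reached the lowest orbital one, though global capture 4 came within a few units of it. Orbital captures averaged 502 ± 103 and global captures 278 ± 71.3 (SD, n = 4 each), a log2 difference of 0.86 ± 0.19 (SE; limma adjusted p = 0.0141). The call held under 20 of 24 alternatives and was lost without orbital capture 3 (limma adjusted p = 0.0512) or without orbital captures 3 and 4 together (0.0558), the 2 captures with the highest Gapdh but not actin ratio. Within a single prefix it was not called either (0.0717 in R2 and 0.271 in R3).

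The second Igfbp6 probe set, 1387625_at, was dim and fell under the filter. It read 70.0, 51.7, 82.8 and 34.6 in orbital captures 1 to 4, against 21.2, 26.0, 26.2 and 26.3 in global captures 1 to 4. Again the layers did not overlap, and global capture 4 was under the background mark of its array. Fitted without the filter, its log2 difference was 1.16 ± 0.33 (SE; limma adjusted p = 0.0784), which did not pass. Both Igfbp6 probe sets had r of 0.90 over the 8 captures, with orbital capture 3 highest and orbital capture 4 lowest of its layer in each.

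Igfbp7 read 712.1, 965.3, 908.3 and 937.9 in orbital captures 1 to 4, against 473.4, 602.1, 525.8 and 774.2 in global captures 1 to 4. Only global capture 4 lay above an orbital capture, the first. Its log2 difference of 0.58 ± 0.16 (SE; limma adjusted p = 0.0450) was the closest to the threshold of the 4 that passed. The call held under 9 of 24 alternatives and ended when any 1 of 6 captures was removed (all but global capture 4 and orbital capture 1; limma adjusted p 0.0666 to 0.131). With orbital captures 3 and 4 averaged it was not called (limma adjusted p = 0.0970), nor without them (0.285). Of the 13 tested probe sets, 2 had all orbital captures above all global ones (1388469_at of Igf1 and 1372168_s_at of Igfbp6) and 0 the reverse, where 7.31% and 6.75% of all tested probe sets did.

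**Figure D1:**
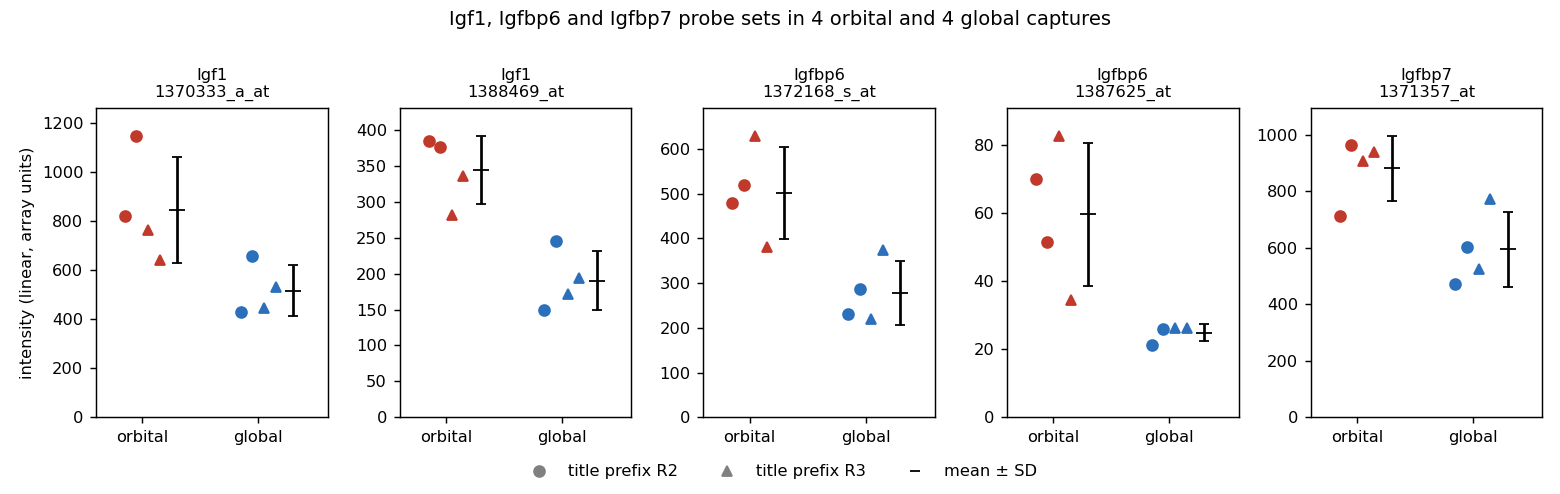
Intensity (linear array units) of the Igf1, Igfbp6 and Igfbp7 probe sets in each orbital (red, left) and global (blue, right) capture, with circles for title prefix R2, triangles for R3 and the mean ± SD in black (n = 4). The layers do not overlap in 1388469_at of Igf1 and in both Igfbp6 probe sets, and 1387625_at lies between 21.2 and 26.3 in the global captures, near background.

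Igfbp3, the main carrier of IGFs in blood, had probe sets whose log2 differences differed in sign, but neither passed. Probe set 1367652_at was between 101.9 and 216.5 in the orbital and between 96.3 and 257.7 in the global captures (log2 difference 0.13 ± 0.28, SE; limma adjusted p = 0.833). Probe set 1386881_at was between 60.7 and 113.1 in the orbital and between 65.6 and 167.3 in the global captures (-0.28 ± 0.27; limma adjusted p = 0.609). Global capture 3 was the highest of all 8 at both probe sets, whose values had r of 0.63 over the 8 captures. Igfbp4, a binding protein known to restrain IGF action, was between 104.7 and 166.3 in the orbital and between 73.0 and 158.8 in the global captures (0.25 ± 0.23, SE; limma adjusted p = 0.599).

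Igfbp5 is a binding protein known to rise as mouse myoblasts differentiate in culture. Its probe sets disagreed. At 1370960_at it read 560.1, 590.2, 646.7 and 867.1 in orbital captures 1 to 4, against 596.9, 560.4, 646.5 and 588.8 in global captures 1 to 4, and orbital capture 4 stood above the rest (log2 difference 0.14 ± 0.14, SE; limma adjusted p = 0.651). At 1387348_at it read 263.3, 435.4, 237.4 and 375.9 in orbital captures 1 to 4, against 342.0, 494.4, 473.6 and 419.2 in global captures 1 to 4. Here the orbital layer was lower with overlap (-0.43 ± 0.19; limma adjusted p = 0.223, and 0.0468 before adjustment). One more probe set, 1387347_at, is annotated to the same sequence record as 1387348_at but read only 2.7 to 4.7 in the orbital and 2.3 to 4.6 in the global captures, under the background mark of every array. The 2 bright probe sets had r of -0.03 over the 8 captures, so which of them follows Igfbp5 transcript cannot be settled from these values.

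**Figure D2:**
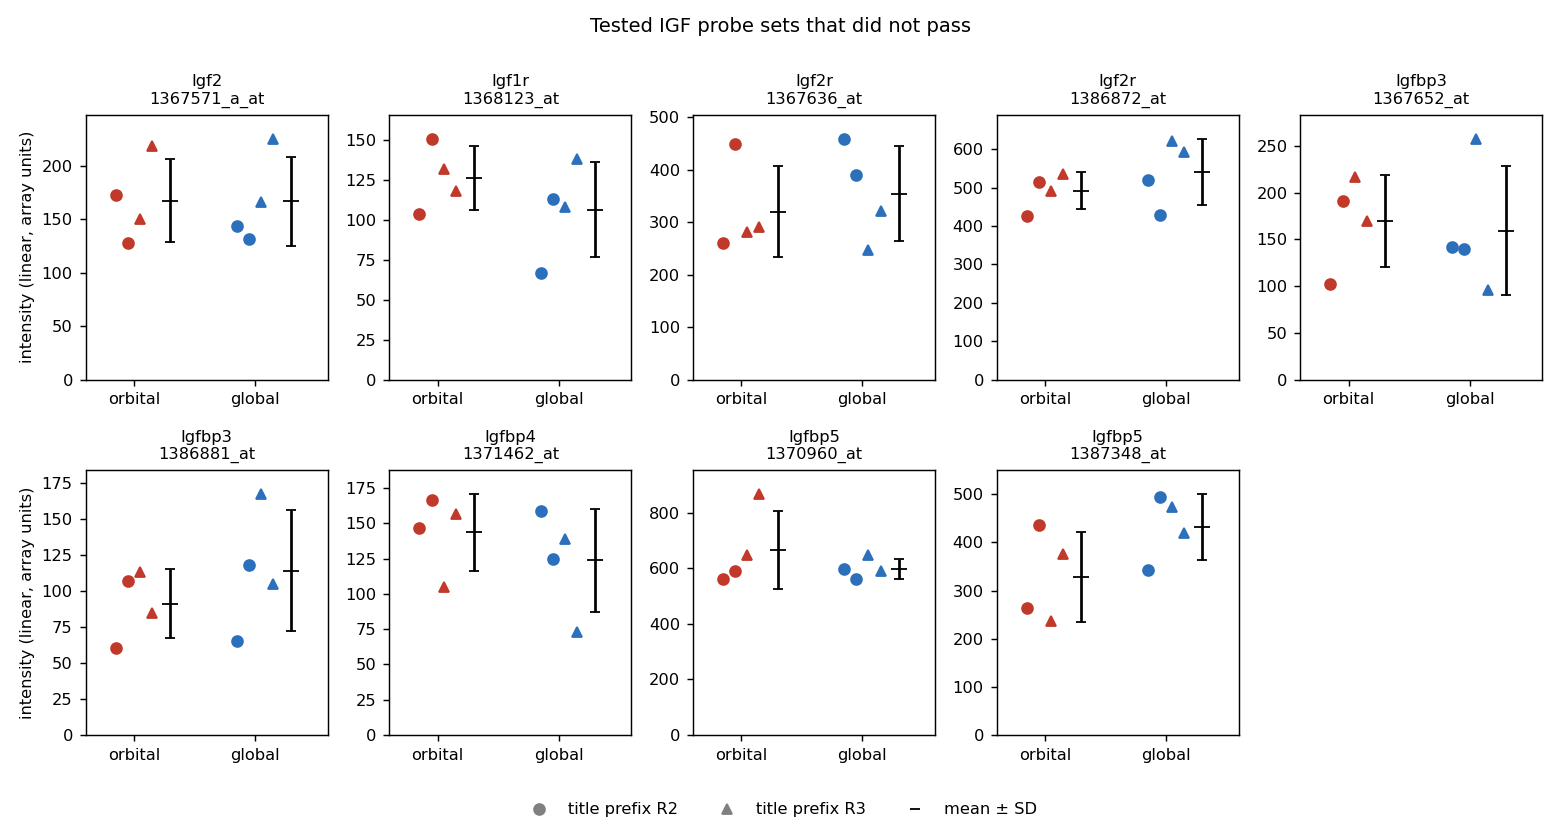
Intensity (linear array units) of the 9 tested probe sets that did not pass, in each orbital (red, left) and global (blue, right) capture, with circles for title prefix R2, triangles for R3 and the mean ± SD in black (n = 4). The layers overlap in every one, with Igf2 between 127.5 and 218.1 in the orbital and between 131.2 and 225.2 in the global captures.

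The labels do not say what the title prefixes R2 and R3 stand for; each covers 2 captures per layer. The titles of orbital captures 3 and 4 are nearly the same, and with both averaged as 1 sample 3 of the 4 probe sets still passed, all but Igfbp7. The 4 probe sets that passed were higher in the orbital layer under both prefixes. The log2 difference of Igf1 was 0.99 within R2 and 0.75 within R3 at 1388469_at, and 0.87 and 0.52 at 1370333_a_at. That of Igfbp6 at 1372168_s_at was 0.96 within R2 and 0.77 within R3, and that of Igfbp7 was 0.63 and 0.53. An interaction term of layer and prefix passed in 0 of the 13 probe sets and in 0 of all 9520 (limma, 2 captures per layer and prefix). With no adjustment it had p under 0.05 in 0 of the 13 and in 290 of the 9520. The median log2 difference of the 13 was 0.14, against 0.02 for all tested probe sets, and 9 of the 13 were above 0, as were 53.1% of all tested probe sets. Ranked from the highest of 9520 log2 differences, Igf1 stood at 231 and 411, Igfbp6 at 236 and Igfbp7 at 624.

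**Figure D3:**
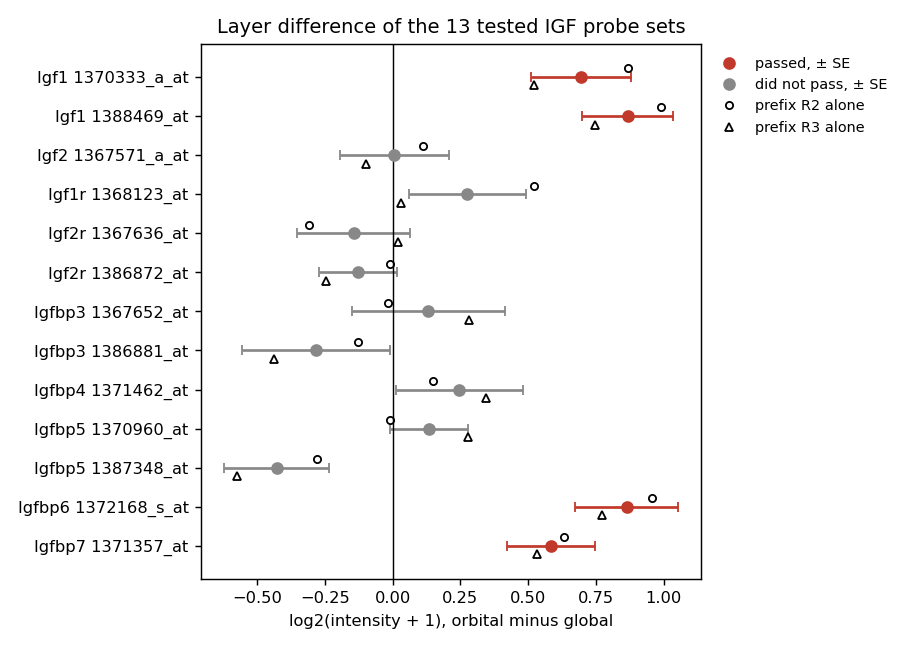
Log2 difference, orbital minus global, of the 13 tested probe sets (filled points, ± SE, n = 4 captures per layer), with the difference within each title prefix as open circles (R2) and triangles (R3). The 4 probe sets that passed (red) lie between 0.58 and 0.87, and both prefixes give positive values for each.

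Markers of other cell types were summed per capture. Fibroblast and matrix genes, of which 15 of 15 were on the array, summed to 9612 to 12861 in the orbital and 7203 to 11035 in the global captures; 1 of 14 tested rose (Fmod, 0.86), 0 fell, and the median log2 difference was 0.26. Endothelial genes, 11 of 13 on the array, summed to 1611 to 2143 in the orbital and 1496 to 1707 in the global captures, with 1 of 11 rising (Eng, 1.29) and a median of 0.32. Eng, Flt1, Vwf and Icam2 had all orbital captures above all global ones, as did 7.31% of all tested probe sets. Pecam1, Kdr, Emcn, Esam, Cldn5, Tie1 and Plvap overlapped. Smooth muscle and pericyte genes, 10 of 10 on the array, summed to 1084 to 1311 in the orbital and 1427 to 1528 in the global captures, with 1 of 8 tested falling (Myh11, -1.39) and a median of -0.09. Photoreceptor genes, 5 of 7 on the array, summed to 1411 to 2968 in the orbital and 307 to 1264 in the global captures, with 1 of 4 tested rising (Guca1a, 2.05) and a median of 1.72. The photoreceptor and smooth muscle sums did not overlap between layers. Guca1a, at 1027.9 to 1663.6 in the orbital and 208.4 to 450.3 in the global captures, separated the layers, while Sag, Pdc and Gnat1 overlapped. In the smooth muscle list Myh11, at 93.6 to 215.9 in the orbital and 349.2 to 511.2 in the global captures, separated the layers. The dimmer Tagln did so too. Acta2, Cnn1, Rgs5, Pdgfrb, Cspg4, Des, Smtn and Mylk overlapped, so the list did not fall as a whole. Of 11 Schwann cell and nerve genes 9 were on the array. They summed to 2867 to 5623 in the orbital and 1552 to 5084 in the global captures. Pmp22 was the largest part of these sums, at 1769.4 to 3840.3 in the orbital and 964.0 to 3674.2 in the global captures. In this list 2 of 7 tested rose (Cnp, 0.84, and Nefm, 1.23), with a median of 0.84. Adipocyte genes, 6 of 9 on the array, summed to 281 to 552 in the orbital and 429 to 985 in the global captures. None of the 3 tested adipocyte genes (0) passed, their median was -0.997, and Lep was under the background mark of every array. Macrophage and blood genes, 7 of 10 on the array, summed to 1350 to 2020 in the orbital and 1256 to 3055 in the global captures, and 0 of 7 passed, with a median of 0.01. Of the 12 skeletal muscle genes 1 rose (Myh8, 1.56) and 0 fell, their median was -0.11, and their sums were 67501 to 98951 in the orbital and 73087 to 106352 in the global captures. Without passing, Acta1, Ckm, Myh1, Tnnc2, Myl11, Tnni2 and Tnnt3 had negative log2 differences and Myh13, Myh2, Des and Actn2 positive ones. Myl11 was lower in every orbital capture than in any global one. The values in brackets are log2 differences, and marker genes were named after their values were seen. Over all 7163 genes tested, each by its brightest probe set, 4.09% rose and 3.59% fell. The part of these cells in the differences of Igf1, Igfbp6 and Igfbp7 was not tested.

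The genes most like each member that passed were taken as the 3 with the highest Pearson r of log2 values over the 8 captures, among 7162 other genes. For Igf1 at 1388469_at these were Bud31 (r = 0.97), Tnnt2 (0.97), the cardiac troponin T, and Tgif2 (0.96). For Igf1 at 1370333_a_at they were Ablim3 (0.97), Tax1bp3 (0.97) and App (0.96), so the lists of both Igf1 probe sets had no gene in common. Igfbp6 was most like Tmbim1 (0.97), Emp3 (0.97) and Ltbp4 (0.96), a matrix protein that binds latent TGF-beta. Igfbp7 was most like Gatm (0.98), Reck (0.96), an inhibitor of matrix metalloproteinases, and Col15a1 (0.96), a basement membrane collagen. Of these 12 genes 5 themselves passed: Bud31, Tmbim1, Ltbp4 and Reck, with log2 differences of 1.04, 0.90, 0.99 and 0.57, and Tnnt2. Over all 7163 genes tested 7.68% passed. Choosing genes by likeness to probe sets that differed between the layers favours such passes, so this count adds no evidence. Tnnt2 averaged 783 ± 189 in the orbital captures and 24.9 ± 31.3 in the global captures (SD, n = 4 each), where it was near background. The points share arrays and layers, and no test was made.

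Genes around the IGF system were described through 9 fixed lists. A gene with several probe sets was represented by the brightest one. Of 75 such genes tested, 4 rose (Grb14, Nras, Htra1 and Myf6) and 3 fell (Rps6kb1, Sesn1 and Ctsl), which is 9.33%, against 7.68% of all 7163 genes tested (4.09% higher and 3.59% lower). Their median log2 difference was 0.01, against 0.02 for all genes. The share was thus near that of the array, and the lists as a whole did not lean to either layer.

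Of the other genes of the IGF system, 8 of 11 were on the array and only 2 were bright enough to test, neither of which passed. Igfbp2 differed by 0.37 ± 0.29 (SE; limma adjusted p = 0.503) and Ins1 by -0.25 ± 0.27 (0.657). Insr, the insulin receptor, which lies outside the naming rule and was chosen after its values were seen, was dim, with 22.9 to 42.0 in the orbital and 5.9 to 38.1 in the global captures. Igfals, the partner of Igfbp3 in blood and also outside the rule, was under the background mark on all 8 arrays.

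Among proteases that cut IGF binding proteins and their inhibitors, 1 of 8 tested rose and 0 fell, with a median of 0.28. Htra1, a secreted serine protease, read 301.7, 394.2, 465.2 and 345.6 in orbital captures 1 to 4, against 228.1, 262.7, 174.4 and 268.1 in global captures 1 to 4. The layers did not overlap, and the log2 difference was 0.69 ± 0.17 (SE; limma adjusted p = 0.0278). This call was lost on leaving out global capture 1 or 3 or orbital capture 2 or 3 (limma adjusted p 0.0663 to 0.0892) or orbital captures 3 and 4 together (0.200). It held under 14 of 24 alternatives, and was also lost without the intensity trend and with orbital captures 3 and 4 averaged (limma adjusted p = 0.0601 and 0.0524). In the CCN family, whose first domain resembles that of the IGF binding proteins, 0 of 3 tested passed. Ccn2, the connective tissue growth factor, read 2401.3, 904.6, 2469.6 and 1265.6 in the orbital captures, against 521.9, 1007.4, 1360.2 and 662.7 in the global captures (log2 difference 0.96 ± 0.33, SE; limma adjusted p = 0.108), and Ccn4 differed by -0.27.

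Downstream of the receptor, 27 adaptor and PI3K-Akt-mTOR genes were tested, of which 1 rose, 1 fell and 25 did not pass, with a median of -0.07. Grb14, an adaptor that binds activated insulin receptors and restrains them, read 377.7, 281.1, 278.7 and 410.5 in orbital captures 1 to 4, against 126.8, 140.5, 105.2 and 123.4 in global captures 1 to 4. The lowest orbital value was 278.7 and the highest global value 140.5. The log2 difference of 1.42 ± 0.16 (SE; limma adjusted p = 0.000215) was called under all 24 alternatives run, where it was between 1.08 and 1.56. Rps6kb1, the S6 kinase that mTOR activates, read 333.8, 324.5, 257.9 and 300.6 in the orbital captures, against 610.2, 593.5, 658.1 and 415.8 in the global captures. It was lower in the orbital layer without overlap (log2 difference -0.89 ± 0.16, SE; limma adjusted p = 0.00358). That call was lost without orbital captures 3 and 4 (limma adjusted p = 0.0590) and within either prefix alone (0.0643 and 0.114).

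In the Ras-MAP kinase arm 1 of 8 tested rose and 0 fell. Nras, a Ras GTPase, averaged 317 ± 33.2 in orbital captures and 168 ± 73.5 in global captures (SD, n = 4 each), without overlap (log2 difference 1.02 ± 0.26, SE; limma adjusted p = 0.0292). Its second probe set differed by 0.37 without passing (limma adjusted p = 0.319), and removing any 1 of 6 captures ended the call (all but global captures 1 and 2, 0.0523 to 0.0838). The Nras call held under 12 of 24 alternatives. Of 8 FoxO and atrophy genes 1 fell and 0 rose, with a median of -0.25. Sesn1, a stress protein that restrains mTOR, averaged 232 ± 21.2 in orbital captures and 343 ± 49.0 in global captures (SD, n = 4 each; log2 difference -0.55 ± 0.14, SE; limma adjusted p = 0.0291). Removing any 1 of 6 captures ended the Sesn1 call (all but global capture 4 and orbital capture 2, limma adjusted p 0.0501 to 0.0950), which held under 12 of 24 alternatives.

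Of 12 genes of lysosomal sorting and enzymes that Igf2r can carry, 1 fell and 0 rose, with a median of 0.01. Ctsl, the lysosomal protease cathepsin L, read 662.6, 522.6, 768.9 and 683.0 in the orbital captures, against 1043.0, 812.0, 1190.2 and 905.2 in the global captures, without overlap. Its log2 difference was -0.58 ± 0.15 (SE; limma adjusted p = 0.0357), and a second probe set gave -0.58 (0.0174). Removing any 1 of 6 captures ended the call at the first (all but global capture 2 and orbital capture 3, limma adjusted p 0.0537 to 0.106), which held under 12 of 24 alternatives. Of 8 genes of growth hormone signalling, the hormone that drives Igf1 transcription in liver, only 3 were bright enough to test and 0 passed, with a median of -0.55. Socs2 and Cish were under the background mark on all 8 arrays. Stat5a differed by -0.55 ± 0.18 (SE; limma adjusted p = 0.0920) and Socs3 by -0.67 ± 0.33 (0.262). Of 4 myogenic regulators and growth factors tested, 1 rose, the myogenic factor Myf6 (log2 difference 0.64 ± 0.15, SE; limma adjusted p = 0.0175), and 0 fell. The Myf6 call held under 18 of 24 alternatives. Among single captures left out, it was lost without global capture 3 (limma adjusted p = 0.0572), orbital capture 1 (0.0575) or orbital capture 2 (0.0524).

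**Figure D4:**
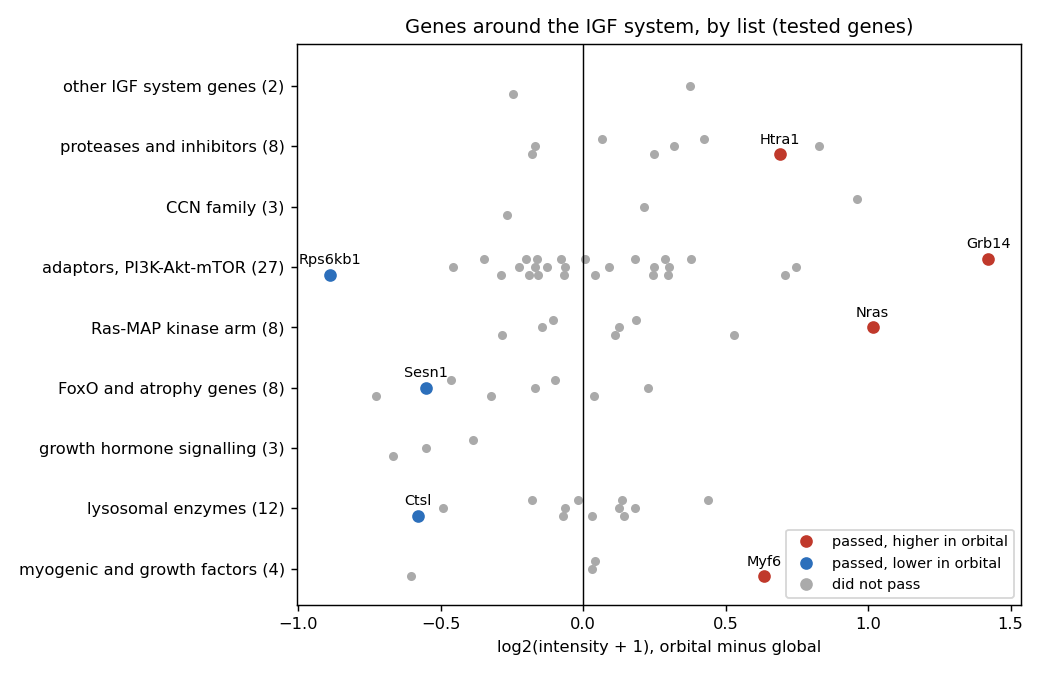
Log2 difference, orbital minus global, of every tested gene in the 9 lists around the IGF system (number tested in brackets), with genes that passed named and coloured (red higher, blue lower in the orbital layer) and the others in grey. Grb14 at 1.42 and Rps6kb1 at -0.89 stand at the ends, and 68 of the 75 genes did not pass.

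**Figure D5:**
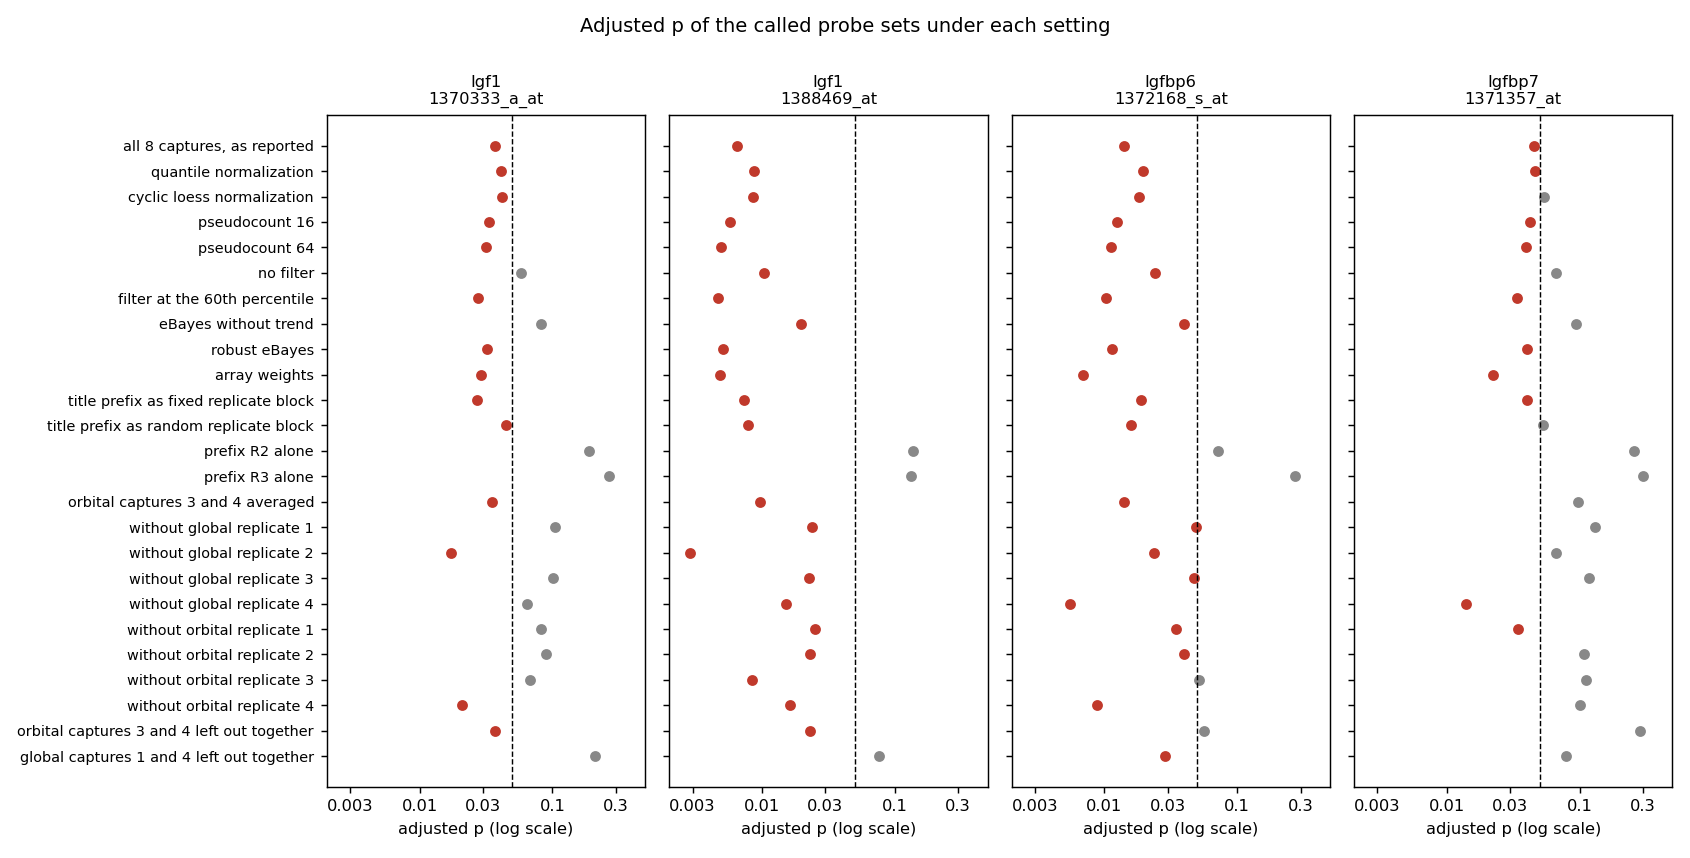
Adjusted p (log axis) of the 4 IGF probe sets that passed, under the reported fit and each of 24 alternatives, with the threshold of 0.05 as a dashed line and red points under it. Igf1 at 1388469_at stayed under it in 21 alternatives, Igfbp6 in 20, Igf1 at 1370333_a_at in 13 and Igfbp7 in 9.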

How the data were processed

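Layers were cut out with a laser, and a T7-based amplification of the mRNA preceded 1-colour Affymetrix arrays, per the labels. The deposited values are 1 linear intensity per probe set and array; which software summarised the probes is not given here. The authors had already scaled the arrays: their 2% trimmed means differed by only 0.00389%. No further normalization was applied. Amplification can distort levels between transcripts, so no difference in level between probe sets was tested. The marker sums and the choice of the brightest probe set per gene do depend on such levels. The number of arrays limits the precision.

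The 57 control probe sets were dropped from the 15923. Of the remaining 15866, the 9520 whose mean log2 value reached the 40th percentile were tested. Log2(intensity + 1) was fitted with layer as the only term in limma 3.58.1 under R 4.3.3, using lmFit and a trended eBayes, with Benjamini-Hochberg adjustment over all probe sets tested. The pseudocount of 1 makes fold changes of dim probe sets uncertain. The code was tested on simulated data. Probe sets were named from the platform annotation, which can be old; 12783 had 1 symbol, 312 several and 2771 none, and all 18 members matched a current RefSeq gene. Captures were numbered in accession order within a layer. The members and gene lists were chosen with earlier results of these data known. Outside the members, genes named were those of each pathway list that passed, up to 2 with the smallest p in a pathway list where none did, and the 3 most correlated with each member probe set that passed. Marker genes and genes under the background mark were named outside this rule, after their values were seen. Alternatives were other normalizations, pseudocounts of 16 and 64, other filters, other variance models, array weights, the title prefix as a block or alone, orbital captures 3 and 4 averaged, and each capture left out. Leaving out orbital captures 3 and 4, or global captures 1 and 4, was added after seeing the data.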

Additional observations from a re-analysis of the deposited data

Results flagged for a closer look

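In 2 of 36 checks of a probe set within a layer, 1 capture stood apart from the other 3 by more than Dixon's 95% limit, which chance gives in about 1 of 20. Orbital capture 4 read 10.2 at the Igf2 probe set 1371206_a_at, which was under the background mark on all 8 arrays. Global capture 1 read 21.2 at the dim Igfbp6 probe set 1387625_at, where the other global captures lay between 26.0 and 26.3.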

How the results depend on the processing

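The 4 member probe sets that passed kept their direction under all 24 alternatives. The number called was 2 without a filter and 2 without the intensity trend. It was 0 within prefix R2 and 0 within prefix R3, where only 2 captures per layer remain. It was 2 without orbital captures 3 and 4, 1 without global captures 1 and 4, and 1 to 3 with 1 capture left out. None (0) was called lower under any setting. Of all probe sets tested 7.41% passed as reported, 3.77% without a filter and 5.32% without the trend. Within prefixes R2 and R3 the share was 1.11% and 1.74%. Without orbital captures 3 and 4 it was 3.81%, and without global captures 1 and 4 it was 3.52%. With 1 capture left out it was 4.92% to 7.63%. Of the pathway genes, 4 were higher and 3 lower as reported. The number higher was 3 without a filter, 2 without the trend, 1 within R2 and 2 within R3. It was 2 with orbital captures 3 and 4 averaged and 2 without those captures. Without global captures 1 and 4 it was 2, and with 1 capture left out 1 to 4. The number lower was 2 without a filter, 1 without the trend, 0 within R2 and 0 within R3. It was 2 with orbital captures 3 and 4 averaged, 0 without those captures, and 1 without global captures 1 and 4. With 1 capture left out it was 1 to 3. Pseudocounts of 16 and 64, a filter at the 60th percentile, a robust variance model, array weights and the prefix as a fixed block each gave 4. With the title prefix as a fixed replicate block 4 members were higher, and with it as a random block 3, Igfbp7 being lost (limma adjusted p = 0.0530). Deviations from the layer mean had r of -0.01 to 0.11 between captures of different layers under the same prefix. Under different prefixes r was -0.13 to 0.04. Because deviations were taken within each layer, these sets of values are tied to each other and cannot decide whether captures were paired. The prefix was not taken as a pairing in the reported fit because no label ties a capture to an animal. Of the 9 tested member probe sets that did not pass, 5 kept their sign under all 24 alternatives and 4 changed it. Igf2 at 1367571_a_at was -0.043 with quantile normalization, -0.033 with cyclic loess, -0.097 within R3, -0.040 with orbital captures 3 and 4 averaged, -0.13 without them, and -0.13 to 0.16 with 1 capture left out. Igfbp3 at 1367652_at was -0.016 within R2, -0.095 without orbital captures 3 and 4, -0.22 without global captures 1 and 4, and -0.077 to 0.39 with 1 capture left out. Igfbp5 at 1370960_at was -0.0085 within R2 and -0.055 without orbital captures 3 and 4, and Igf2r at 1367636_at 0.021 within R3 and 0.012 without global captures 1 and 4. Beyond the smaller number of captures where some were left out, the cause was not tested. A signal near background limits 1387625_at of Igfbp6 and the 4 member probe sets under the background mark on every array.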
